A study of Homo sapiens with 12 samples.

Results

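The TRIM family was followed through 4 treatments of the human melanoma line SK-MEL-2, which is an established cell line. Its members were taken by symbol alone, as every named gene called TRIM followed by a number and at most letters, and 58 of the 14582 named genes on the array met that rule, each through 1 probe set. RefSeq holds 94 symbols of this form, 73 of them protein-coding, and the 36 without a named probe set, among them TRIM6, TRIM23, TRIM34, TRIM39 and TRIM63, were not analysed here. The cells had been treated for 24 h in all arms, with 3 arrays in each. The DTE arm received dabrafenib at 100 nM, trametinib at 10 nM and entinostat at 1 µM. The DT arm received the same doses of dabrafenib and trametinib, the E arm received entinostat alone at 1 µM, and the DMSO arm received vehicle. Dabrafenib inhibits RAF kinases, trametinib the kinases MEK1 and MEK2 downstream of them, and entinostat the class I histone deacetylases. All arms are of 1 cell line, and the labels differ on whether the replicates are biological (sample titles) or technical (series text). P-values therefore cover only the variation among these arrays, which may be technical.

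TRIM proteins are named for a tripartite motif of a RING finger, B-box zinc fingers and a coiled coil. The RING finger binds a ubiquitin-loaded E2 enzyme, which makes most members E3 ubiquitin ligases, and the coiled coil pairs the chains. The domain that follows selects the substrate: a SPRY domain in most members, NHL repeats, a COS box that binds microtubules, or a PHD finger with a bromodomain in the chromatin-bound members. The family is best known for restricting viruses and tuning interferon signalling, and other members act in the neuronal cytoskeleton, in muscle and in transcriptional repression.

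A value is a deposited array intensity, and a difference is a log2 difference, given ± its standard error (SE) from a limma fit across all 14582 genes. A gene rose or fell where its adjusted p was under 0.05, with adjustment over all genes by Benjamini-Hochberg. Most differences are also given after quantile normalization of the arrays, called the quantile value, because the arrays differed in overall level and the deposited files do not say how they were scaled. Array values, and words on which arrays were high or low, are of the deposited values. Such separation was common there. All DTE arrays lay below all DMSO arrays for 9277 of the 14582 genes, below all DT arrays for 8737 and below all E arrays for 11524. All DT arrays lay below all DMSO arrays for 4338 genes, and all E arrays lay above them for 3935. The geometric mean intensity of the 58 TRIM genes was 30.2 ± 1.49 in DTE, 43.2 ± 2.10 in DT, 52.5 ± 6.36 in E and 47.3 ± 4.30 in DMSO (SD, n = 3 each). All 3 DTE arrays lay below all others. The same mean over all named genes was 26.5 in DTE, 35.5 in DT, 45.7 in E and 40.2 in DMSO, so the TRIM genes followed the arrays.

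**Figure D1:**
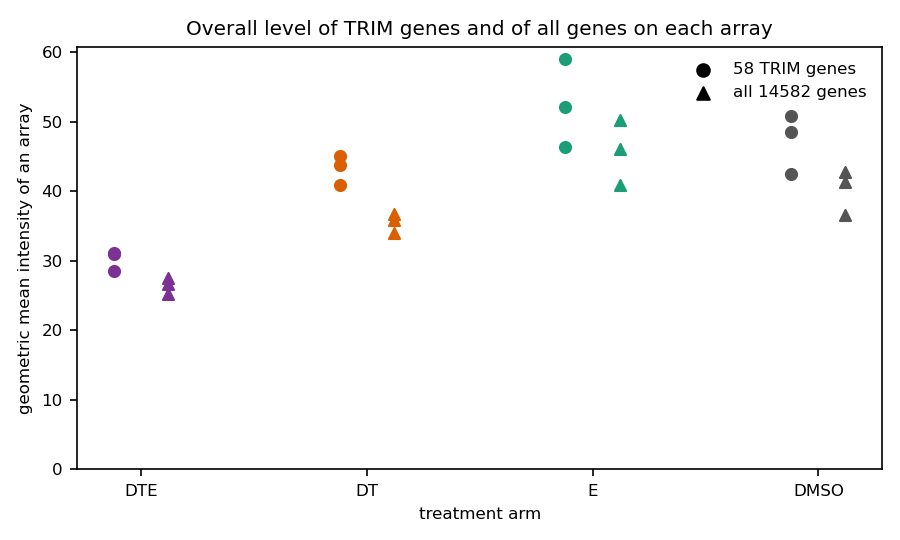
Geometric mean intensity on each array (vertical axis, linear, from 0) for the 58 TRIM genes (circles) and for all 14582 named genes (triangles), by arm (horizontal axis: DTE, DT, E, DMSO). The DTE arrays are the dimmest for both, with TRIM means of 28.5 to 31.1 against 42.5 to 50.8 in DMSO.

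Melanocyte markers were present throughout: all 7 measured markers of the 8 listed, among them MLANA, PMEL, MITF and SOX10, were above background in every arm. Their summed intensity was 2427 to 2630 in DTE, 4205 to 4734 in DT, 4252 to 6092 in E and 5044 to 5737 in DMSO. In both scalings MLANA, MITF and TYR fell in DT and in DTE, where 14.6% and 22.9% of all genes fell. TYRP1 rose in DT, and in E PMEL rose and MLANA fell, also in both scalings. Of 9 listed markers of leukocytes, endothelium, keratinocytes and other epithelium, 5 were measured. KRT5 was not above background in any arm, and CD68, VWF, KRT14 and EPCAM were above it in all. The summed intensity of those 5 was 158 to 162 in DTE, 256 to 294 in DT, 270 to 331 in E and 251 to 301 in DMSO. In both scalings EPCAM rose in E (0.83, quantile value 0.48) and KRT14 rose in DT (0.70, quantile value 0.80). CD68, VWF and KRT5 were not called in both scalings in either arm. In bulk RNA fewer cells of a type and less RNA per cell cannot be told apart, and the part of other cells in the results below was not tested.

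Most of the family lay above the background level used here, as most genes did. Background was set on each array from the dimmest 25% of genes, as the intensity that 95% of them did not exceed, and lay between 11.1 and 16.2. By that level 43 TRIM genes were above background in all 4 arms, 4 were above it in 1 to 3 arms (TRIM7, TRIM31, TRIM49B and TRIM69), and 11 were not above it in any. The 47 members above it in at least 1 arm, called detected here, are 81.0% of the family, against 77.7% of all named genes. Because the level is set from the dimmest 25% of the same genes, most genes exceed it by construction. Whether a gene above it was expressed was not tested. The 11 at background were TRIM5, TRIM22, TRIM29, TRIM42, TRIM43, TRIM43B, TRIM49, TRIM50, TRIM60, TRIM64 and TRIM64C. TRIM5 and TRIM22 are restriction factors of retroviruses, and several of the others belong to primate-specific or testis-expressed branches of the family.

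Against DMSO, entinostat alone raised more TRIM genes than it lowered in deposited values, and not after quantile normalization or median centring. In E, 13 members rose and 4 fell in deposited values, where 20.8% of all genes rose and 4.81% fell. After quantile normalization 9 rose and 10 fell, where 15.3% of all genes rose and 16.2% fell. In both scalings 8 genes rose (14.2% of all genes did): TRIM9, TRIM21, TRIM32, TRIM36, TRIM45, TRIM59, TRIM62 and TRIM67. In both, 4 fell (4.79% of all genes): TRIM2, TRIM8, TRIM47 and TRIM48. Centring each array on its median gave 7 higher and 15 lower, where 11.7% and 26.1% of all genes were called. The shares of the family called in deposited and quantile values alike are 13.8% and 6.9%, so as counts the rises were near the background. The median difference was 0.19 over TRIM genes and 0.14 over all genes, with quantile values of 0.0066 and −0.033.

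Dabrafenib with trametinib lowered more TRIM genes than it raised in deposited values. In DT, 2 members rose and 11 fell, where 4.72% of all genes rose and 23.1% fell. The quantile-normalized values gave 15 higher and 6 lower, where 14.6% and 15.0% of all genes were called, so the balance of directions turned with the scaling. Median centring gave 13 higher and 9 lower, where 15.7% and 17.7% of all genes were called. In both scalings 6 members fell (14.6% of all genes): TRIM14, TRIM25, TRIM28, TRIM37, TRIM47 and TRIM65. TRIM49B and TRIM5 rose in both (4.66% of all genes), and TRIM5 was at background in all arms, so no fold is given for it. The median difference was −0.08 over TRIM genes and −0.12 over all genes, with quantile values of 0.011 and −0.0022.

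With all 3 agents, 2 members rose and 36 fell in deposited values, where 4.26% of all genes rose and 60.8% fell. After quantile normalization 13 rose and 10 fell, where 20.0% and 23.0% of all genes did. With median centring both counts were 23, where 37.8% and 31.7% of all genes were called. In both scalings 10 fell (22.9% of all genes): TRIM8, TRIM11, TRIM14, TRIM27, TRIM35, TRIM41, TRIM47, TRIM48, TRIM49B and TRIM65. For TRIM49B both arms were at background. TRIM69 and TRIM5 rose in both (4.24% of all genes). Another 5 members, TRIM9, TRIM21, TRIM32, TRIM61 and TRIM68, fell in deposited values and rose in quantile values, an opposition of calls found in 7.37% of all genes, so their direction in DTE depends on the scaling. The 8 members that rose in E in both scalings all rose in DTE after quantile normalization (20.0% of all genes). In deposited values 3 of these 8 fell in DTE and none rose. The E and DTE differences share the DMSO arrays. The median difference was −0.49 over TRIM genes and −0.54 over all genes, with quantile values of −0.0065 and −0.036.

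**Figure D2:**
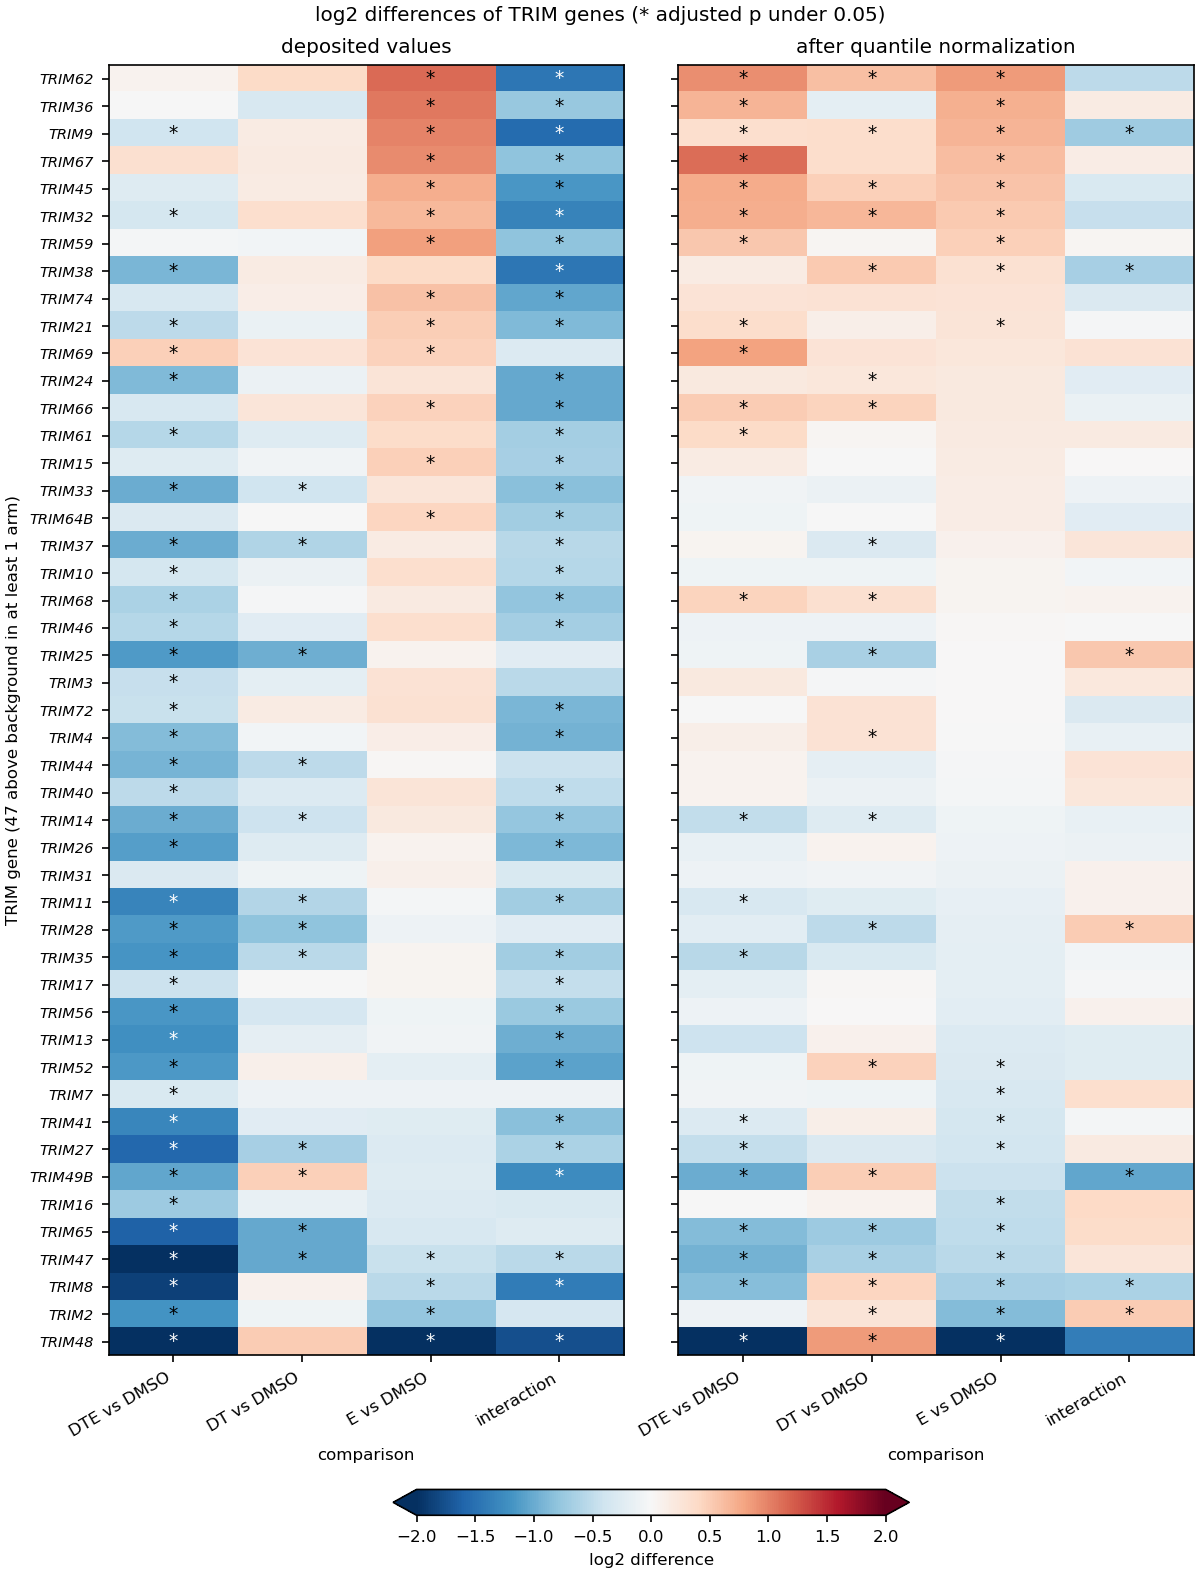
Log2 differences (colour, from −2 to 2) of the 47 TRIM genes above background in at least 1 arm, for DTE, DT and E against DMSO and for the interaction, in deposited values (left) and after quantile normalization (right); stars mark an adjusted p under 0.05. TRIM48 is the darkest row, with −2.28 in E and −3.54 in DTE, and most of the blue of the DTE column on the left is absent on the right.

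The largest differences from DMSO of any TRIM gene were those of TRIM48 in E and in DTE. It is a RING and SPRY member from a primate gene cluster on chromosome 11. TRIM48 stood at 18.3, 21.5 and 11.4 on the DTE arrays, 307, 327 and 199 on the DT arrays, 34.9, 37.4 and 47.1 on the E arrays, and 195, 200 and 179 on the DMSO arrays. Both arms with entinostat lay below both arms without it, with no overlap, and 1 of the 3 DTE arrays was below its own background. TRIM48 fell by 2.28 ± 0.20 in E (4.84-fold lower, adjusted p = 7.2e-09, quantile value −2.33). It fell by 3.54 ± 0.20 in DTE (11.6-fold lower, adjusted p = 3.2e-12, quantile value −2.86). Set against DT, the DTE arm was 16.5-fold lower, a difference of −4.04 (adjusted p = 7e-13, quantile value −3.71). The DT arm itself differed from DMSO by 0.50 (adjusted p = 0.064), which passed after quantile normalization at 0.86 (adjusted p = 0.03).

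TRIM49B lies in the same family branch and was dim. Its values were 5.92, 5.13 and 7.68 in DTE, 21.7, 17.1 and 14.6 in DT, 8.83, 10.0 and 13.6 in E, and 13.9, 12.4 and 11.8 in DMSO. Only the DT arm was above background, and all of its arrays were above all DMSO arrays. TRIM49B was at least 1.35-fold higher in DT than in DMSO (adjusted p = 0.048), a call that was lost when any of 7 single arrays was left out (adjusted p of 0.052 to 0.25: each DMSO array, DT replicates 1 and 2, E replicate 2 or DTE replicate 1). It was at least 1.53-fold lower in DTE than in DT (adjusted p = 3.4e-07), and the DTE and DT arrays did not overlap. TRIM48 and TRIM49B are close copies, and whether transcripts of one bind the probes of the other was not tested. The promoter windows of TRIM48 and TRIM49B are shown because both copies were lower in DTE than in DT. Each runs from 250 bases before to 50 bases after the RefSeq start (GRCh38.p14, plus strand, chr11:55261905-55262204 and chr11:49028573-49028872). The capitals mark their longest shared run, of 32 bases.
TRIM48: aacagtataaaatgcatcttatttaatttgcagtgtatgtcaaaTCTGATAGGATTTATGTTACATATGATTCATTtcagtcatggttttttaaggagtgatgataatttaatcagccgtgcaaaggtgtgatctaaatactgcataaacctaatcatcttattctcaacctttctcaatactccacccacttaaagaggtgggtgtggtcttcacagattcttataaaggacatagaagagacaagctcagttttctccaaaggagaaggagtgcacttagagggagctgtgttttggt
TRIM49B: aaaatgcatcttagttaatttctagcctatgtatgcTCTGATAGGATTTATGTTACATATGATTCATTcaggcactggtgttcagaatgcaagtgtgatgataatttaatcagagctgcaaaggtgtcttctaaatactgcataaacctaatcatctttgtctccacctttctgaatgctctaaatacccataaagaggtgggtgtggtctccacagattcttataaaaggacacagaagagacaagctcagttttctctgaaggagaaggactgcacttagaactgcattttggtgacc
In a gapped alignment 251 bases were identical, which is 83.7% of the window. The window of TRIM49, a further copy that was at background in all arms, shared 156 bases with TRIM48. At 36.0% GC, the TRIM48 window lies far below the median of 58.7% over the 44 members whose window was at hand.

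TRIM47 and TRIM65, neighbouring SPRY ligases on chromosome 17, fell together with DT. TRIM65 modifies the RNA sensor MDA5, and TRIM47 is a ligase described mostly in carcinomas. TRIM47 had 49.3, 57.2 and 57.5 in DTE, 115, 99.4 and 110 in DT, 137, 169 and 179 in E, and 217, 234 and 207 in DMSO. The 4 arms did not overlap, and DMSO was the highest. TRIM47 fell by 1.02 ± 0.14 in DT (2.03-fold lower, adjusted p = 4.2e-06, quantile value −0.65) and by 0.45 ± 0.14 in E (adjusted p = 0.018, quantile value −0.54). In DTE it fell by 2.01 ± 0.14 (4.02-fold lower, adjusted p = 3.9e-11, quantile value −0.95). The call in E was lost without DMSO replicate 2 (adjusted p = 0.08) or E replicate 1 (adjusted p = 0.075). TRIM47 was the member that fell in both scalings in each treatment against DMSO, and also in DTE against DT and against E.

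TRIM65 had 24.5, 27.5 and 21.5 in DTE, 38.0, 32.2 and 40.6 in DT, 43.7, 65.6 and 74.7 in E, and 83.1, 84.0 and 60.7 in DMSO. Its DTE and DT arrays lay below all DMSO arrays, while E overlapped DMSO. TRIM65 fell by 1.03 ± 0.18 in DT (2.04-fold lower, adjusted p = 9.3e-05, quantile value −0.73) and by 1.62 ± 0.18 in DTE (3.08-fold lower, adjusted p = 3.1e-08, quantile value −0.87). In E the difference was −0.33 (adjusted p = 0.19), and the quantile value of −0.51 passed (adjusted p = 0.01). Among 11 pairs of TRIM genes that are next to each other in the order of protein-coding genes, 7 had both genes above background. TRIM47 with TRIM65 was the pair among these 7 in which both genes fell in both scalings, in DT and in DTE. Their promoter windows (GRCh38.p14, minus strand, chr17:75878532-75878831 for TRIM47 and chr17:75896902-75897201 for TRIM65) are shown because this pair moved together, and the capitals mark GC boxes, GGGCGG or its reverse complement.
TRIM47: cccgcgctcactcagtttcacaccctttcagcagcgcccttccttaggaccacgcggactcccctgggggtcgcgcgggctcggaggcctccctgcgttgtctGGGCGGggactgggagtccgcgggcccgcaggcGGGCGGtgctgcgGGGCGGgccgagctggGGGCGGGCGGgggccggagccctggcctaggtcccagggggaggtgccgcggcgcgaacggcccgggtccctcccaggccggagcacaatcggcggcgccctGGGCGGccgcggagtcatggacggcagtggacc
TRIM65: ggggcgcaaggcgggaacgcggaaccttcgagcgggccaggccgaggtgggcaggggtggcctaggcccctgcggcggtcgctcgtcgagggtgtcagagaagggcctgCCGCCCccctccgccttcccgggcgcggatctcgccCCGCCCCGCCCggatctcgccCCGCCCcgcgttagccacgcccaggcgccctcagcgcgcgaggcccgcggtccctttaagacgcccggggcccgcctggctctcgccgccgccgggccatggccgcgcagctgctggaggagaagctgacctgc
The TRIM47 window holds 6 GC boxes and the TRIM65 window holds 4, overlapping matches counted separately. A GC box on either strand was found in 52.3% of the 44 TRIM windows and in 44.6% of all 27305 windows. The TRIM65 window has 77.7% GC and the TRIM47 window 77.0%.

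TRIM25, TRIM27 and TRIM11 were further SPRY ligases that fell with DT in deposited values. TRIM25 attaches ubiquitin to the RNA sensor RIG-I and ISG15 to other proteins, TRIM27 is the RET finger protein, and TRIM11 acts in the removal of misfolded proteins. TRIM25 had 232, 283 and 282 in DTE, 302, 272 and 314 in DT, 545, 642 and 655 in E, and 616, 652 and 493 in DMSO. Both arms with DT lay below both arms without it. TRIM25 fell by 0.98 ± 0.14 in DT (1.97-fold lower, adjusted p = 1.3e-05, quantile value −0.64). In DTE it fell by 1.14 (adjusted p = 2.7e-07), but the quantile value was −0.09 (adjusted p = 0.35).

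TRIM27 had 81.6, 90.2 and 84.1 in DTE, 178, 157 and 147 in DT, 187, 190 and 256 in E, and 296, 273 and 200 in DMSO. Its DTE arrays were the lowest and DT lay below DMSO without overlap. After quantile normalization DTE overlapped DT and E. TRIM27 fell by 1.57 ± 0.16 in DTE (2.97-fold lower, adjusted p = 9.3e-09, quantile value −0.48). The fall of 0.66 in DT (adjusted p = 0.0026) had a quantile value of −0.30 that did not pass (adjusted p = 0.056). TRIM11 had 37.9, 46.7 and 47.3 in DTE, 77.0, 60.5 and 81.8 in DT, 95.6, 104 and 122 in E, and 113, 120 and 95.5 in DMSO. All DTE arrays were below all arrays of the other arms, but after quantile normalization DTE overlapped DT. TRIM11 fell by 1.31 ± 0.15 in DTE (adjusted p = 7e-08, quantile value −0.32).

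**Figure D3:**
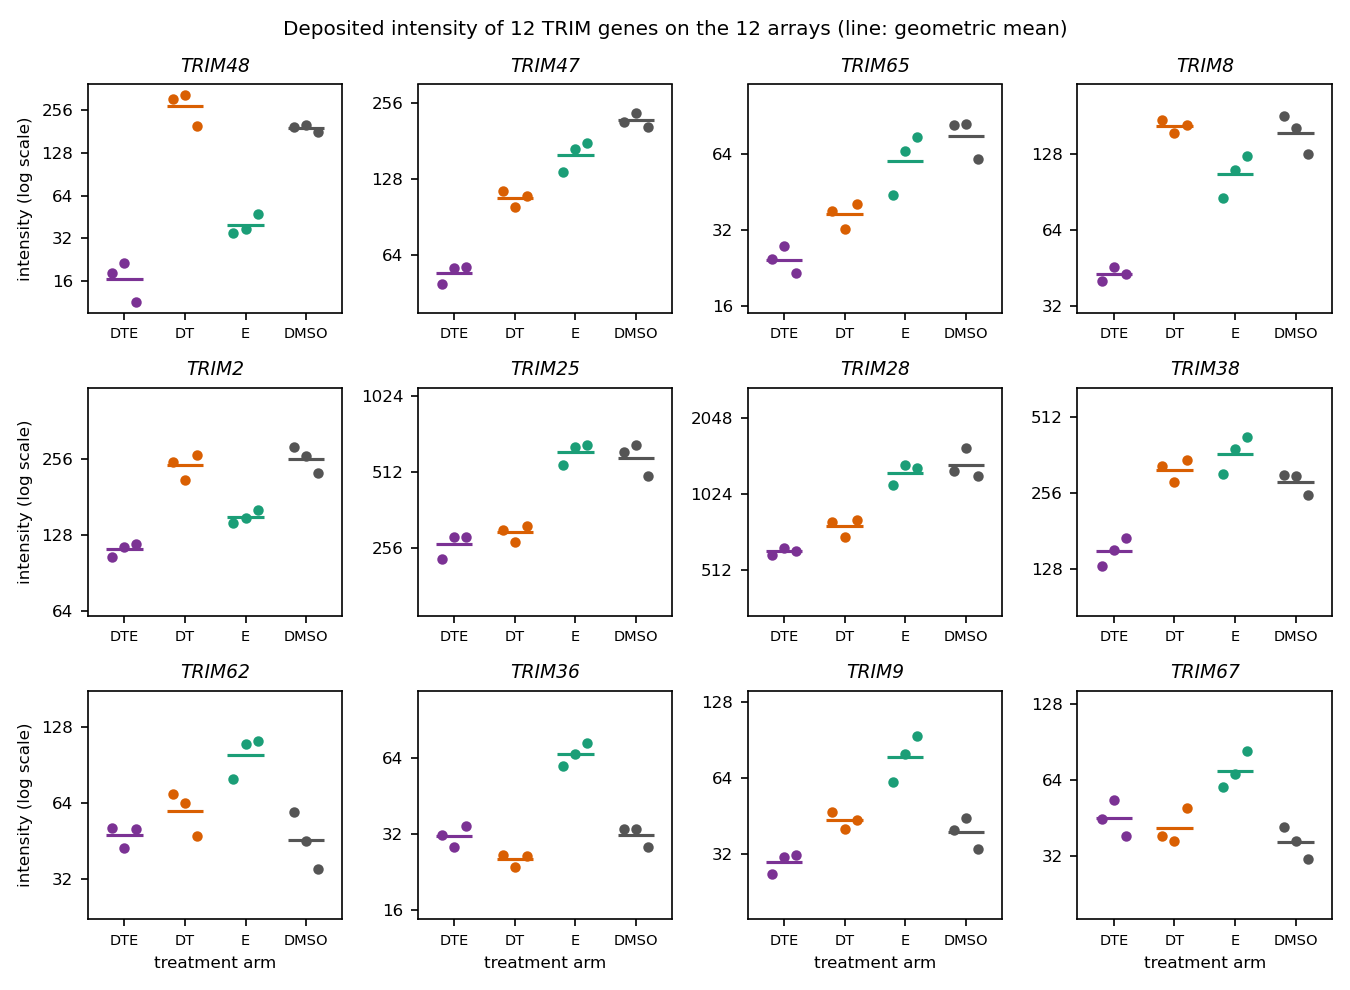
Deposited intensity (vertical axis, log scale) of 12 TRIM genes on each of the 12 arrays, by arm (horizontal axis: DTE, DT, E, DMSO), with points for arrays and lines for geometric means. In these deposited values TRIM48 is low wherever entinostat was given, and TRIM25 and TRIM28 are low wherever DT was given. TRIM36, TRIM62 and TRIM9 peak in E here, but after quantile normalization the E arrays of TRIM36 and TRIM62 overlap those of DTE.

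Of the 31 measured RING and SPRY genes, 22 were above background. TRIM62 and TRIM21 were those of the 31 that rose with entinostat in both scalings, as 14.2% of all genes did. TRIM47 and TRIM48 were those that fell in both (4.79% of all genes). TRIM62 regulates epithelial polarity, and TRIM21 is a cytosolic receptor for the Fc part of antibodies. TRIM62 had 51.1, 42.3 and 50.5 in DTE, 69.1, 63.9 and 47.2 in DT, 79.4, 109 and 112 in E, and 59.0, 45.2 and 35.1 in DMSO. The E arrays lay above all others in deposited values, and the remaining arms overlapped. After quantile normalization E overlapped DTE and DT. TRIM62 rose by 1.13 ± 0.18 in E (2.18-fold higher, adjusted p = 5.1e-05, quantile value 0.86). In DTE its difference from DMSO was 0.07 (adjusted p = 0.74), with a quantile value of 0.94 that passed (adjusted p = 0.00024). TRIM21 rose by 0.49 in E (adjusted p = 0.0098, quantile value 0.26).

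TRIM69, a ligase of the mitotic spindle that also restricts some viruses, was among the dim members. It had 17.4, 15.8 and 16.4 in DTE, 17.0, 13.2 and 13.2 in DT, 15.3, 16.6 and 17.6 in E, and 14.9, 11.6 and 9.76 in DMSO. The DMSO arm was not above background, and all DTE arrays were above all DMSO arrays. TRIM69 was at least 1.23-fold higher in DTE than in DMSO (adjusted p = 0.0099), and at least 1.55-fold higher after quantile normalization. The call was lost without DMSO replicate 3 (adjusted p = 0.072).

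Several COS-box members, which bind microtubules, rose with entinostat. Of the 8 listed, 5 were measured and 4 were above background, and 3 of the 5 rose in E in both scalings (14.2% of all genes did): TRIM36, TRIM9 and TRIM67. The median difference of the 5 in E was 0.94, with a quantile value of 0.62, beside 0.14 and −0.03 over all genes. TRIM36 acts in the sperm acrosome reaction, while TRIM9 and TRIM67 are close relatives expressed in brain that act in axon guidance.

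TRIM36 had 31.8, 28.3 and 34.4 in DTE, 26.3, 23.6 and 26.2 in DT, 59.4, 66.0 and 73.3 in E, and 33.3, 33.6 and 28.3 in DMSO. The E arrays stood well clear of the rest in deposited values, but after quantile normalization they overlapped DTE. TRIM36 rose by 1.06 ± 0.14 in E (2.08-fold higher, adjusted p = 2.5e-06, quantile value 0.71). In DTE it differed from DMSO by −0.01 (adjusted p = 0.94), where the quantile value was 0.69 and passed (adjusted p = 5.4e-05).

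TRIM9 had 26.6, 31.1 and 31.7 in DTE, 47.0, 40.4 and 43.5 in DT, 61.8, 79.3 and 94.1 in E, and 39.7, 44.4 and 33.6 in DMSO. Its E arrays were the highest and its DTE arrays the lowest. TRIM9 rose by 0.99 ± 0.16 in E (1.98-fold higher, adjusted p = 3.5e-05, quantile value 0.68). Its difference in DTE changed sign with the scaling, at −0.39 (adjusted p = 0.031) and a quantile value of 0.33 (adjusted p = 0.0066).

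TRIM67 had 45.0, 53.4 and 38.7 in DTE, 38.7, 36.8 and 49.5 in DT, 60.4, 67.6 and 83.4 in E, and 41.7, 36.8 and 31.4 in DMSO. In deposited values E again lay above the other arms, which overlapped. After quantile normalization all DTE arrays lay above all E arrays. TRIM67 rose by 0.94 ± 0.16 in E (1.92-fold higher, adjusted p = 0.00011, quantile value 0.62). In DTE the difference of 0.32 did not pass (adjusted p = 0.093), and the quantile value of 1.12 did (adjusted p = 1.9e-05). TRIM46, which organises microtubules at the start of the axon, differed by 0.33 in E (adjusted p = 0.065, quantile value 0.02), and TRIM42 was at background.

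Members with NHL repeats or a filamin domain split. TRIM2 is a neuronal ligase that binds neurofilament light chain, TRIM32 is mutated in a limb-girdle muscular dystrophy, and TRIM45 carries a filamin domain. TRIM2 had 105, 115 and 118 in DTE, 249, 212 and 267 in DT, 143, 150 and 160 in E, and 286, 264 and 225 in DMSO. As with TRIM48, both arms with entinostat lay below both without it. TRIM2 fell by 0.77 ± 0.14 in E (1.70-fold lower, adjusted p = 0.00016, quantile value −0.87). In DTE it fell by 1.19 (adjusted p = 7.2e-08), but the quantile value was −0.10 (adjusted p = 0.33).

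TRIM45 had 60.4, 75.8 and 72.2 in DTE, 101, 85.1 and 93.3 in DT, 105, 151 and 163 in E, and 91.3, 81.5 and 75.7 in DMSO. In deposited values its E arrays lay above all others. TRIM45 rose by 0.73 ± 0.16 in E (adjusted p = 0.0012, quantile value 0.57), and TRIM32 rose by 0.65 ± 0.13 (adjusted p = 0.0007, quantile value 0.53). In DTE, TRIM45 differed by −0.26 (adjusted p = 0.16), with a quantile value of 0.75 that passed (adjusted p = 2.6e-05). In DTE, TRIM32 changed sign with the scaling, at −0.35 (adjusted p = 0.026) and a quantile value of 0.72 (adjusted p = 4.5e-05). TRIM3, a further neuronal ligase with NHL repeats, differed by 0.29 in E (adjusted p = 0.3, quantile value 0.00).

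All 4 members with a PHD finger and a bromodomain were measured and above background. TRIM28 (also called KAP1) is the corepressor that KRAB zinc finger proteins bring to DNA, TRIM24 is a cofactor of nuclear receptors, TRIM33 acts on SMAD4, and TRIM66 is a relative studied in the testis. TRIM28 had 585, 627 and 607 in DTE, 794, 690 and 802 in DT, 1108, 1325 and 1291 in E, and 1260, 1547 and 1199 in DMSO. Both arms with DT were below both arms without it. TRIM28 fell by 0.80 ± 0.14 in DT (1.75-fold lower, adjusted p = 8.8e-05, quantile value −0.53), and in DTE by 1.13 (adjusted p = 1.6e-07), with a quantile value of −0.21 that did not pass (adjusted p = 0.056). It was the member of this class that fell with DT in both scalings. TRIM24 differed by −0.12 in DT (adjusted p = 0.59) and TRIM66 by 0.24 (adjusted p = 0.29), while their quantile values of 0.23 and 0.44 passed. TRIM33 fell by 0.40 (adjusted p = 0.032), with a quantile value of −0.12 (adjusted p = 0.24).

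Of 12 listed corepressor partners of TRIM28, 11 were measured. In DT, 4 fell in deposited values (23.1% of all genes), and CBX3, the heterochromatin protein HP1 gamma, was the one that fell in both scalings, as 14.6% of all genes did (−0.83 ± 0.17, adjusted p = 0.00056, quantile value −0.50). In E, HDAC1, a histone deacetylase that entinostat inhibits, was the 1 that rose in both scalings (0.51 ± 0.15, adjusted p = 0.012, quantile value 0.40). That was so for 14.2% of all genes. After quantile normalization 1 of the 11 rose in E and 3 fell, where 15.3% and 16.2% of all genes did. In DTE all 11 fell in deposited values (60.8% of all genes) and 2, CBX3 and CHD3, in both scalings (22.9% of all genes). Another 2 of the 11 rose after quantile normalization, an opposition of calls found in 7.37% of all genes. The median difference of the 11 in DTE was −0.98, with a quantile value of −0.02.

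TRIM8, TRIM37 and TRIM59 come from small classes. TRIM8 modulates NF-κB and STAT signalling, TRIM37 controls centrosome number, and TRIM59 sits in membranes. TRIM8 had 40.1, 45.6 and 42.7 in DTE, 174, 155 and 167 in DT, 86.0, 111 and 126 in E, and 181, 162 and 128 in DMSO. The DTE arrays were the lowest by far, E lay below DMSO, and DT overlapped DMSO in deposited values. After quantile normalization all DT arrays (170, 173 and 159) lay above all DMSO arrays (133, 120 and 120). TRIM8 rose in DT after quantile normalization (14.6% of all genes) and after median centring (15.7% of all genes), but not in deposited values. TRIM8 fell by 1.86 ± 0.15 in DTE (3.63-fold lower, adjusted p = 5.3e-10, quantile value −0.86) and by 0.55 ± 0.15 in E (1.46-fold lower, adjusted p = 0.011, quantile value −0.66). The call in E was lost in deposited values without DMSO replicate 1 (adjusted p = 0.065) or without E replicate 1 (adjusted p = 0.058).

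TRIM37 had 157, 197 and 236 in DTE, 261, 218 and 287 in DT, 383, 431 and 499 in E, and 420, 415 and 330 in DMSO. In deposited values both arms with DT lay below both without it. TRIM37 fell by 0.61 ± 0.16 in DT (1.53-fold lower, adjusted p = 0.0063, quantile value −0.28). In DTE it fell by 0.99 (adjusted p = 9.4e-06), with a quantile value of 0.05 (adjusted p = 0.7). TRIM59 had 24.6, 25.5 and 24.9 in DTE, 26.5, 18.5 and 30.3 in DT, 37.9, 50.3 and 48.5 in E, and 35.5, 22.1 and 21.4 in DMSO. Its E arrays were the highest in deposited values, and DMSO varied widely. TRIM59 rose by 0.82 ± 0.19 in E (adjusted p = 0.0019, quantile value 0.47). In DTE it differed by −0.03 (adjusted p = 0.89), with a quantile value of 0.54 that passed (adjusted p = 0.018).

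Interferon-linked and antiviral members did not share a direction. Of 11 listed, 9 were measured and 7 were above background. With DT, TRIM25 and TRIM14, a mitochondrial adaptor of RNA sensing, fell in both scalings (14.6% of all genes). TRIM14 fell by 0.42 ± 0.14 (adjusted p = 0.023, quantile value −0.26). TRIM5 rose in both (4.66% of all genes) but was at background in all arms. With entinostat TRIM21 was the member that rose in both scalings (14.2% of all genes) and none fell in either. TRIM69 rose in deposited values only (20.8% of all genes), and TRIM38 after quantile normalization only (15.3% of all genes). TRIM14 also fell in DTE in both scalings (−0.98 ± 0.14, adjusted p = 8.8e-07, quantile value −0.50), as 22.9% of all genes did. TRIM69 and TRIM5 rose in both there (4.24% of all genes). TRIM5 was at background in all arms and TRIM69 in DMSO.

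The interferon-stimulated response element, searched on both strands as GAAA, any 2 bases and GAAA, was in the windows of 9 of 44 members (20.5%) and in 3.65% of all windows. Stretches of 30 bases around it are shown for the 5 antiviral members that held it, with the matched bases in capitals (GRCh38.p14, minus strand except TRIM69).
TRIM5: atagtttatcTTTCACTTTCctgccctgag
TRIM14: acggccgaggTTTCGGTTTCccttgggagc
TRIM21: cttctgagcgGAAACTGAAAGTGAAAtagg
TRIM26: tcccgcctgaTTTCAGTTTCCATTTCgctg
TRIM69: ctaatgagggTTTCTCTTTCtcttaagcaa
They lie at chr11:5685082-5685111, chr9:98119229-98119258, chr11:4393666-4393695, chr6:30213581-30213610 and chr15:44736456-44736485 (plus strand), in the order shown. In TRIM21 and TRIM26 overlapping matches run together. In E, TRIM21 rose by 0.49 (quantile value 0.26), and TRIM69, whose DMSO arm was at background, was at least 1.23-fold higher (adjusted p = 0.027), which did not pass after quantile normalization (adjusted p = 0.21). TRIM14 differed by 0.20 (adjusted p = 0.31, quantile value −0.09) and TRIM26 by 0.06 (adjusted p = 0.8, quantile value −0.10), and TRIM5 was at background. Differences between these genes were not tested.

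Among 16 listed partners in antiviral sensing, 12 were measured, and with DT the interferon transducer IRF9 rose (0.81 ± 0.14, adjusted p = 9.5e-05, quantile value 1.06) while the DNA sensor CGAS fell (−1.07 ± 0.14, adjusted p = 2e-06, quantile value −0.84). With entinostat RIGI, the RNA sensor that TRIM25 modifies, rose (0.85 ± 0.15, adjusted p = 0.00018, quantile value 0.59) and CGAS fell (−0.61 ± 0.14, adjusted p = 0.0018, quantile value −0.79). In DT, 1 of the 12 rose and 3 fell in deposited values (4.72% and 23.1% of all genes). After quantile normalization 6 rose and 1 fell in DT (14.6% and 15.0% of all genes), with a median of 0.31 beside −0.0022 over all genes. In E, 1 of the 12 rose and 5 fell after quantile normalization (15.3% and 16.2% of all genes). In DTE against DT, 11 of the 12 fell in deposited values (54.0% of all genes) and 8 of them in both scalings (18.1% of all genes), among them IRF9, STING1 and ISG15. Their median difference there was −0.98, with a quantile value of −0.36, beside −0.41 and −0.03 over all genes.

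Setting DTE against DT shows what entinostat added. In deposited values 1 member rose and 33 fell, where 4.09% of all genes rose and 54.0% fell, and 12 rose and 9 fell after quantile normalization, where 16.2% and 18.2% did. Median centring gave 10 higher and 15 lower, where 24.1% and 25.6% of all genes were called. In both scalings 9 fell (18.1% of all genes): TRIM2, TRIM8, TRIM13, TRIM38, TRIM41, TRIM47, TRIM48, TRIM49B and TRIM52. TRIM8 fell by 1.95 ± 0.15 (3.87-fold lower, adjusted p = 1.6e-09, quantile value −1.29). The 1 that rose in both, TRIM64, was at background in every arm (4.06% of all genes rose in both). TRIM28 changed sign with the scaling, at −0.33 (adjusted p = 0.046) and a quantile value of 0.32 (adjusted p = 0.0073), as did TRIM21, TRIM37, TRIM44 and TRIM45. Such opposite calls were made for 2.01% of all genes.

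Setting DTE against E shows what dabrafenib with trametinib added. Here 2 members rose and 48 fell in deposited values, where 0.247% of all genes rose and 78.5% fell. After quantile normalization 6 rose and 6 fell, where 9.34% and 10.8% of all genes did. Median centring gave 17 higher and 11 lower, where 36.2% and 19.3% of all genes were called. In both scalings 6 fell (10.8% of all genes): TRIM9, TRIM14, TRIM33, TRIM35, TRIM47 and TRIM49B. For TRIM49B both arms were at background. The 2 that rose in deposited values, TRIM5 and TRIM64, were at background in all arms, and of these TRIM5 was higher in both scalings (0.219% of all genes). TRIM2 changed sign, at −0.42 (adjusted p = 0.008) and a quantile value of 0.77 (adjusted p = 2.4e-05), as did TRIM66, TRIM67 and TRIM68. Such opposite calls were made for 6.92% of all genes here.

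The interaction is the difference of DTE from DT minus that of E from DMSO, and asks whether the 2 treatments add up on the log2 scale. In deposited values 1 member was positive and 38 were negative, where 0.206% of all genes were positive and 62.5% negative. The positive one, TRIM64, was at background in every arm. After quantile normalization 3 were positive and 4 negative, where 1.91% and 2.19% of all genes were. Median centring gave 5 positive and 7 negative, where 12.8% and 4.58% of all genes were. TRIM8, TRIM9, TRIM38 and TRIM49B were negative in both scalings (2.19% of all genes), and none was positive in both (0.13% of all genes). TRIM49B was at background in DTE, E and DMSO, so its interaction has no size that can be read.

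TRIM38, which limits inflammatory signalling, had 131, 151 and 169 in DTE, 326, 282 and 344 in DT, 304, 381 and 423 in E, and 301, 299 and 250 in DMSO. Its DTE arrays lay far below the others in deposited values, while the quantile value of DTE against DMSO was 0.16 (adjusted p = 0.11). The interaction of TRIM38 was −1.45 ± 0.21 (adjusted p = 3.8e-05), with a quantile value of −0.67 (adjusted p = 0.0034). In TRIM9 it was −1.54 (adjusted p = 3e-05, quantile value −0.70), and in TRIM8 −1.40 (adjusted p = 6.5e-05, quantile value −0.63). For TRIM8 entinostat lowered the level by 0.55 alone and by 1.95 on top of DT, and quantile values were −0.66 and −1.29. TRIM48 had an interaction of −1.77 (adjusted p = 8.4e-05), whose quantile value of −1.38 did not pass (adjusted p = 0.064). TRIM62 likewise had −1.44 (adjusted p = 0.00021) and a quantile value of −0.52 (adjusted p = 0.22).

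TRIM25, TRIM28 and TRIM2 had a positive interaction after quantile normalization. In TRIM25 the quantile value was 0.54 (adjusted p = 0.012), in TRIM28 0.50 (adjusted p = 0.026) and in TRIM2 0.52 (adjusted p = 0.02). Their interactions in deposited values were −0.23, −0.23 and −0.33 and did not pass. For TRIM25 the quantile difference was −0.64 with DT alone and −0.10 with DT on top of entinostat.

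Across the 47 detected members the quantile difference made by entinostat alone and that made on top of DT, which share no arrays, correlated at r = 0.83, and at 0.65 without TRIM48. The same over all detected genes was 0.80. For dabrafenib with trametinib, alone and on top of entinostat, r was 0.25 over the 47 members, 0.38 without TRIM48, and 0.73 over all detected genes. In deposited values it was 0.40 over the 47 members. These are descriptions over genes of the same 12 arrays, with no test, and genes are not independent replicates.

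**Figure D4:**
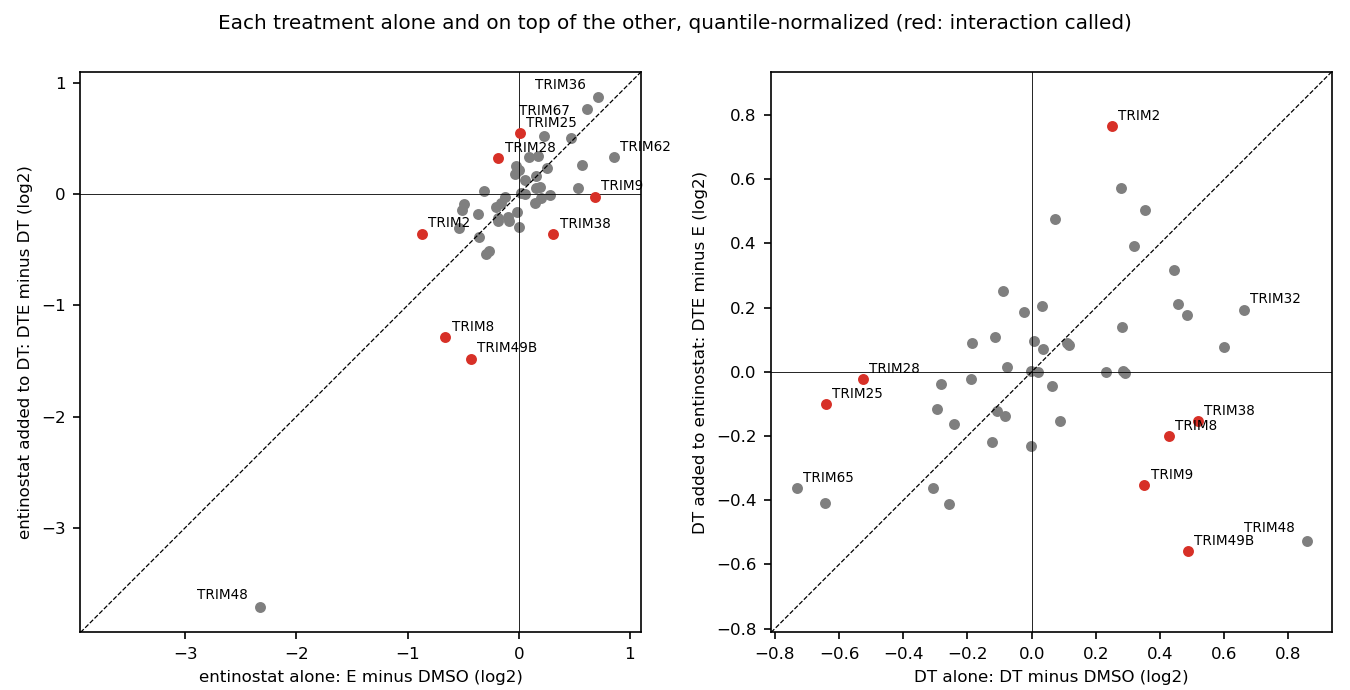
Quantile-normalized log2 differences of the 47 detected TRIM genes, with entinostat alone against entinostat on top of DT (left) and DT alone against DT on top of entinostat (right); the dashed line marks equal values and red points an interaction with adjusted p under 0.05. TRIM48 lies at −2.33 and −3.71 on the left, and on the right TRIM25 and TRIM28 lie below 0 with DT alone but near 0 on top of entinostat.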

How the data were processed

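Affymetrix arrays measured total RNA from 4 treatment arms of SK-MEL-2, with 3 arrays an arm and ERCC spike-ins put in ahead of extraction, per the labels' protocols. What the authors deposited is a linear intensity for each probe set. RMA and Transcriptome Analysis Console are named in the submitters' processing notes, and the step that scaled arrays against each other is not given in the sources. The TRIM members, the gene lists and the alternatives were chosen with earlier results of these data known.

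Of 29398 probe sets, 14750 were named for 1 gene, none for several, and 14648 were not named here. A gene with several was represented by its brightest probe set on average, which left 14582 genes. Here log2 of the deposited intensities was taken with no pseudocount and no filter, and fitted with 1 mean per arm over all 12 arrays by lmFit and eBayes of limma 3.58.1 under R 4.3.3. Comparisons, 6 in all, were DT, E and DTE against DMSO, DTE against DT, DTE against E, and the interaction. P-values were adjusted over all genes within a comparison by Benjamini-Hochberg, and a gene was called at an adjusted p under 0.05. The files state no array-to-array scaling, so quantile normalization of all probe sets was run beside the deposited values, and a gene called the same way in both is said to be called in both scalings, a rule added after the data were seen. An arm whose mean did not exceed the background level has only a bound, which takes that level for the dimmer arm.

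Values on every array are given for detected members among the 6 largest rises or falls past the threshold against DMSO, or the 4 largest in the interaction, and other members by their class. From each partner list at most 3 genes with the smallest adjusted p in a comparison are named. Alternatives were median centring, a pseudocount of 16, a filter on dim genes, the mean of a gene's probe sets, only the arms compared, another variance model, a replicate block, and leaving out each array. Same-numbered arrays of different arms deviated from their arm means with correlations of −0.22 to 0.13 (18 pairs). For arrays of different numbers they were −0.14 to 0.27 (36 pairs). No sign of pairing by number was seen, and 3 arrays an arm cannot exclude it. In a simulation of DT against DMSO over 14582 genes, log2 changes of 0.5 were called in 43.3% of cases and those of 1 or 2 in 100%. Among 14382 genes left unchanged, 8 were called. The simulated noise was independent for each gene, with no shift of whole arrays, and few genes changed, all upward. The simulation therefore does not cover errors from the scaling between arrays. Promoter windows are those of RefSeq (GRCh38.p14), matched by symbol for 44 of the 58 members. The number of arrays limits the precision.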

Additional observations from a re-analysis of the deposited data

Results flagged for a closer look

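The effect of entinostat on 7 TRIM genes differed between cells with and without dabrafenib and trametinib, by the limma interaction after quantile normalization. Over all genes 1.91% were positive and 2.19% negative there. It was positive for TRIM25 (0.54), TRIM2 (0.52) and TRIM28 (0.50). In deposited values the interactions of these 3 were negative and did not pass, so their sign depends on the scaling. After median centring TRIM25 and TRIM28 were called positive and TRIM2 was not. It was negative for TRIM49B (−1.05), TRIM9 (−0.70), TRIM38 (−0.67) and TRIM8 (−0.63). TRIM49B was at background in DTE, E and DMSO, so its value gives no size. In deposited values 1 member, TRIM64 at background in every arm, was positive and 38 were negative (0.206% and 62.5% of all genes). After quantile normalization 3 were positive and 4 negative.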

How the results depend on the processing

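Counts of TRIM genes past the threshold moved most with the scaling between arrays. For DT against DMSO the count was 13 in deposited values, 21 after quantile normalization, 22 after median centring, and 20 with a replicate block on quantile-normalized values. For DTE against DMSO it was 38, with 23 after quantile normalization and 24 with the block added. For DTE against DT it was 34, with 21 and 19. For DTE against E it was 50, with 12 and 10, and 28 after median centring. For the interaction it was 39, with 7 and 7, and 12 after median centring. The mean log2 level of the members in DTE minus DMSO was −0.64, and −0.017 after quantile normalization. In deposited values the replicate block gave 11, 17, 37, 31, 49 and 38 calls for DT, E and DTE against DMSO, DTE against DT, DTE against E and the interaction. The counts with a dim-gene filter, the mean of a gene's probe sets, only the arms compared, another variance model or a pseudocount of 16 stayed within 1.5 times.

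Leaving out 1 array gave 9 to 14 calls for DT, 12 to 17 for E, 32 to 38 for DTE, 26 to 36 for DTE against DT, 45 to 50 for DTE against E and 33 to 41 for the interaction. After quantile normalization the ranges were 15 to 22, 13 to 19, 21 to 24, 14 to 22, 9 to 12 and 5 to 8. Of 28 results for single named genes, 3 lost their call after quantile normalization (TRIM27 in DT, and the interactions of TRIM48 and TRIM62), none after median centring, and 4 in at least 1 of the fits without 1 array: TRIM49B in DT (7 fits), TRIM8 in E, TRIM47 in E and TRIM69 in DTE. TRIM47 in E lost it without DMSO replicate 2 (adjusted p = 0.08) or without E replicate 1 (adjusted p = 0.075). None of these 28 changed sign. The cause was not tested. Differences of members near background, and of DTE against other arms in deposited values, are limited by the dimmer DTE arrays.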

Other observations

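Members of the TRIM family that go by other names also moved. Of 8 such genes, all measured, 5 were above background. MID1, a microtubule-binding ligase of the COS-box class, rose by 0.83 ± 0.14 in DT (adjusted p = 5.4e-05, quantile value 1.19) and by 0.70 ± 0.14 in E (adjusted p = 0.00041, quantile value 0.64). PML, the scaffold of nuclear bodies, fell by 1.27 ± 0.17 in DTE (adjusted p = 5.2e-07, quantile value −0.49), and RNF207, a ligase studied in heart muscle, fell by 1.16 ± 0.14 there (adjusted p = 1e-07, quantile value −0.51). These 2 fell in both scalings in DTE (22.9% of all genes), and 1, MEFV, rose in both (4.24% of all genes). MEFV, whose DMSO arm was at background, was at least 1.21-fold higher in DTE (adjusted p = 0.0028). In the limma interaction MID1 was at −1.34 (adjusted p = 3.3e-05, quantile value −0.58, adjusted p = 0.015).

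Of 10 listed E2 enzymes and cofactors that hand ubiquitin to TRIM ligases, 5 were measured, and in DT UBE2L6, the E2 enzyme of ISG15, fell by 0.68 ± 0.16 (adjusted p = 0.0017, quantile value −0.42). UBE2V2, a partner of UBE2N in making non-degradative ubiquitin chains, fell by 0.44 ± 0.13 (adjusted p = 0.015, quantile value −0.30). In E none of the 5 changed in deposited values, and 2 fell after quantile normalization (16.2% of all genes). In DTE all 5 fell in deposited values (60.8% of all genes), 3 of them in both scalings (22.9% of all genes): UBE2E1, UBE2L6 and UBE2V2.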
